A study of Mus musculus with 10 samples.

Results

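The genes described here run the entry of proteins into the endoplasmic reticulum (ER), their folding there and the response to unfolded protein. They were chosen by name: 56 mouse symbols were listed, and 55 of them had a row in a table of 9690 genes measured in splenic B cells with and without LSD1. Fkbp11 was not analysed here. By role, the 55 comprised 7 signal recognition particle genes, 12 translocon and signal peptidase genes, 6 oligosaccharyl transferase genes, 12 chaperones and co-chaperones, 7 disulfide and prolyl isomerases, 7 genes of ER-associated degradation and 4 regulators. No member was removed by the floor on low values, and 0 members were at 0 in any library.

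The samples were poly(A) RNA libraries of 50000 unstimulated B cells each, sorted from spleens of female C57BL/6J mice. Marginal zone B cells (MZB) were sorted as CD23- CD21hi CD1d+ cells, and follicular B cells (FoB) as CD23+ CD21mid CD1d- cells, both B220+ and negative for Thy1.1, F4/80, CD11b, CD93 and GL7. By their labels the cells had or lacked LSD1, the histone demethylase encoded by Kdm1a, and they gave 2 knockout MZB, 3 wild-type MZB, 3 knockout FoB and 2 wild-type FoB libraries. No Cre driver, deleted exon, age or pooling of mice was stated in the labels used. Nor do the labels say that libraries of a group came from separate mice, so p-values measure the spread between libraries, which may be technical.

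Values are mRNA molecules per cell, as deposited. The values are per length: reads per molecule rose with exon length across 9539 genes, with a Pearson correlation of 0.882 on log scales. Libraries held 4161051 to 6711847 reads, and the member with the fewest, Derl3, had a mean of 65.2 reads. Total mRNA per cell averaged 88956 in wild-type MZB and 50837 in wild-type FoB, and 113331 and 49138 in the knockouts, so nearly every gene was higher in MZB per cell. Each comparison is therefore given per cell and on rescaled values, in which libraries were divided by factors that put most genes at the same level. This moved the median log2 difference of all genes between wild-type MZB and FoB from 0.78 to 0.00. In bulk RNA, fewer cells of a type and less RNA per cell cannot be told apart.

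Kdm1a, the deleted gene, was at 5.37 and 5.94 molecules per cell in knockout MZB and at 6.37, 8.36 and 7.90 in wild-type MZB. In FoB it was at 2.04, 2.36 and 1.93 in knockout and at 5.58 and 4.34 in wild-type libraries. No knockout library overlapped its wild type in either cell type. The rescaled log2 change was -0.69 ± 0.06 (SE) in MZB and -1.10 ± 0.06 in FoB (limma, adjusted p = 0.000463 and 2.5e-05), while per cell the MZB change of -0.39 did not pass (adjusted p = 0.118). The knockout MZB libraries thus kept 60% of the rescaled wild-type level and the knockout FoB libraries 44.3%. The table does not resolve exons, so transcripts that lack the deleted part are counted too. The 9 of 11 marginal zone markers in the table summed to 365 to 406 rescaled molecules in wild-type MZB, 308 to 323 in knockout MZB and 74.7 to 82.2 in all FoB libraries. The 9 of 10 follicular markers summed to 181 to 195 in wild-type MZB, 220 in both knockout MZB libraries and 459 to 475 in FoB.

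Secretory and membrane proteins are recognised as they emerge from the ribosome by the signal recognition particle and pass through the Sec61 channel. In the ER lumen they are trimmed, glycosylated, folded by chaperones and disulfide isomerases, and sent to the proteasome when folding fails. The sensors Ire1 (Ern1), Perk (Eif2ak3) and Atf6 measure unfolded protein and raise chaperone and degradation genes, partly through Xbp1. Marginal zone B cells turn into antibody-secreting plasma cells faster than follicular B cells do, and plasma cells depend on a large ER.

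Promoters of these genes are known for the ER stress response element (ERSE), a CCAAT box and a CCACG box at a fixed spacing, through which Atf6 and Xbp1 act. Of the 55 genes, 44 had a promoter window in RefSeq (GRCm38.p6), of 300 bases from 250 before the start site to 50 after it. Some genes had more than 1 start site, so the 44 genes had 51 windows. A match in any window of a gene was counted. ERSE was searched as CCAAT and CCACG with 9 bases between them, on both strands. It was found in 9 of the 44 genes, or 20.5%, against 0.193% of the 7753 genes of the table with a window and 0.137% of all 27025 genes with one. The 15 genes of the table with a match include these 9. The 44 were chosen by name as genes of these pathways, so their higher share is no independent result. The 9 were Hspa5, Hsp90b1, Calr, Canx, Pdia6, Dnajc3, Creld2, Derl3 and Syvn1, and Hsp90b1 held 2 matches. The shorter ERSE-II, ATTGG and CCACG with 1 base between, was found in Herpud1 and Dnajb11 (4.55% of the 44, 0.0903% of the table). The UPRE core TGACGTGG was found in Txndc5 and Txndc11, again 4.55%, against 1.03% of the table. Txndc5 had 3 windows, and its match lies in 1 of them, which is the one printed below. That window lies inside the annotated gene, whose 5′ end is at chr13:38528824. TGATGNAAT, the amino acid response element read by Atf4 and Chop, was found in 0 of the 44 and in 0.49% of the table. None of these spellings overlaps another in the sequences below. They are shown because they carry the matches of genes that lay on opposite sides of the comparison of cell types, with Pdia4, the gene with the largest difference, for contrast. Each runs 5′ to 3′ on the strand of its gene up to the last base before the start site, and capitals mark the match (on either strand). The positions are Hspa5 at chr2:34771980-34772089 on the plus strand, Hsp90b1 at chr10:86705445-86705659 on the minus strand, Calr at chr8:84846932-84847096 on the minus strand, Dnajc3 at chr14:118937822-118937931 on the plus strand, and then Derl3 at chr10:75893238-75893397 on the plus strand, Herpud1 at chr8:94386369-94386428 on the plus strand, Txndc5 at chr13:38527915-38528054 on the minus strand, Pdia4 at chr6:47813513-47813712 on the minus strand.
Hspa5: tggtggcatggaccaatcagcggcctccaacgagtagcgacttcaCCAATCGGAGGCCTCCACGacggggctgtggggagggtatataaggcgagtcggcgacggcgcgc
Hsp90b1: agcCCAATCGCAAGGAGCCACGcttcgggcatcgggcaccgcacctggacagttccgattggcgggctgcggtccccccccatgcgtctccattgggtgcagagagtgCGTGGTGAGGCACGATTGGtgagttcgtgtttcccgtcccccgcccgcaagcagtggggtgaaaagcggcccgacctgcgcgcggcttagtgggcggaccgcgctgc
Calr: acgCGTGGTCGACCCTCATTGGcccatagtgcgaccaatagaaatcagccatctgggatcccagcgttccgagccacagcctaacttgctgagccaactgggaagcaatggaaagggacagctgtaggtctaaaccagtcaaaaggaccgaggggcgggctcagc
Dnajc3: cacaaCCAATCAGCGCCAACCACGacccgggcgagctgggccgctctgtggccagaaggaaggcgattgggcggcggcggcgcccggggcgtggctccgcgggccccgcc
Derl3: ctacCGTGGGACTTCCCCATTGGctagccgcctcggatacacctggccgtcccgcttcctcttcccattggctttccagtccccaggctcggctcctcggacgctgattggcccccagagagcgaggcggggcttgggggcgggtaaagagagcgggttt
Herpud1: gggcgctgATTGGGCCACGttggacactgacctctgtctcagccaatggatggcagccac
Txndc5: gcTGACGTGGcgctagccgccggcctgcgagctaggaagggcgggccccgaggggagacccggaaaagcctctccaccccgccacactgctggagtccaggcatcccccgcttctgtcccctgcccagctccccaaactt
Pdia4: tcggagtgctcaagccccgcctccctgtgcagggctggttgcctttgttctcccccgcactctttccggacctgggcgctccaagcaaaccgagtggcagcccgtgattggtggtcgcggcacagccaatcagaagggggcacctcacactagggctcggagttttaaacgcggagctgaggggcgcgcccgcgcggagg
Pdia4 held none of the 4 spellings in its window. A match is a description of letters and not evidence of binding.

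Measured per cell, the order of the genes differed between the cell types. Pdia4 led in wild-type MZB with a mean of 163 molecules, before Hsp90b1 (87.1), Mzb1 (81.8), Calr (77.3) and Hspa5 (70.4). The ranges of the last 4 overlapped across libraries, from 55.2 for the lowest of Hspa5 to 101 for the highest of Hsp90b1. Within each library, though, Hspa5 lay below Mzb1 and Calr, while Mzb1 and Calr changed order. Calr led in wild-type FoB with 53.6, before Hsp90b1 (39.7), Hspa5 (31.8), Pdia4 (19.4) and Mzb1 (18.6). The 55 genes together made 1.063 to 1.110% of all mRNA in wild-type MZB and 0.835 to 0.867% in wild-type FoB. Without Pdia4 and Mzb1, which were singled out after their values were seen, the other 53 made 0.789 to 0.848% and 0.762 to 0.790%, ranges that overlap narrowly. The pair alone made 0.262 to 0.290% in wild-type MZB and 0.073 to 0.076% in wild-type FoB, groups that lie far apart.

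**Figure D1:**
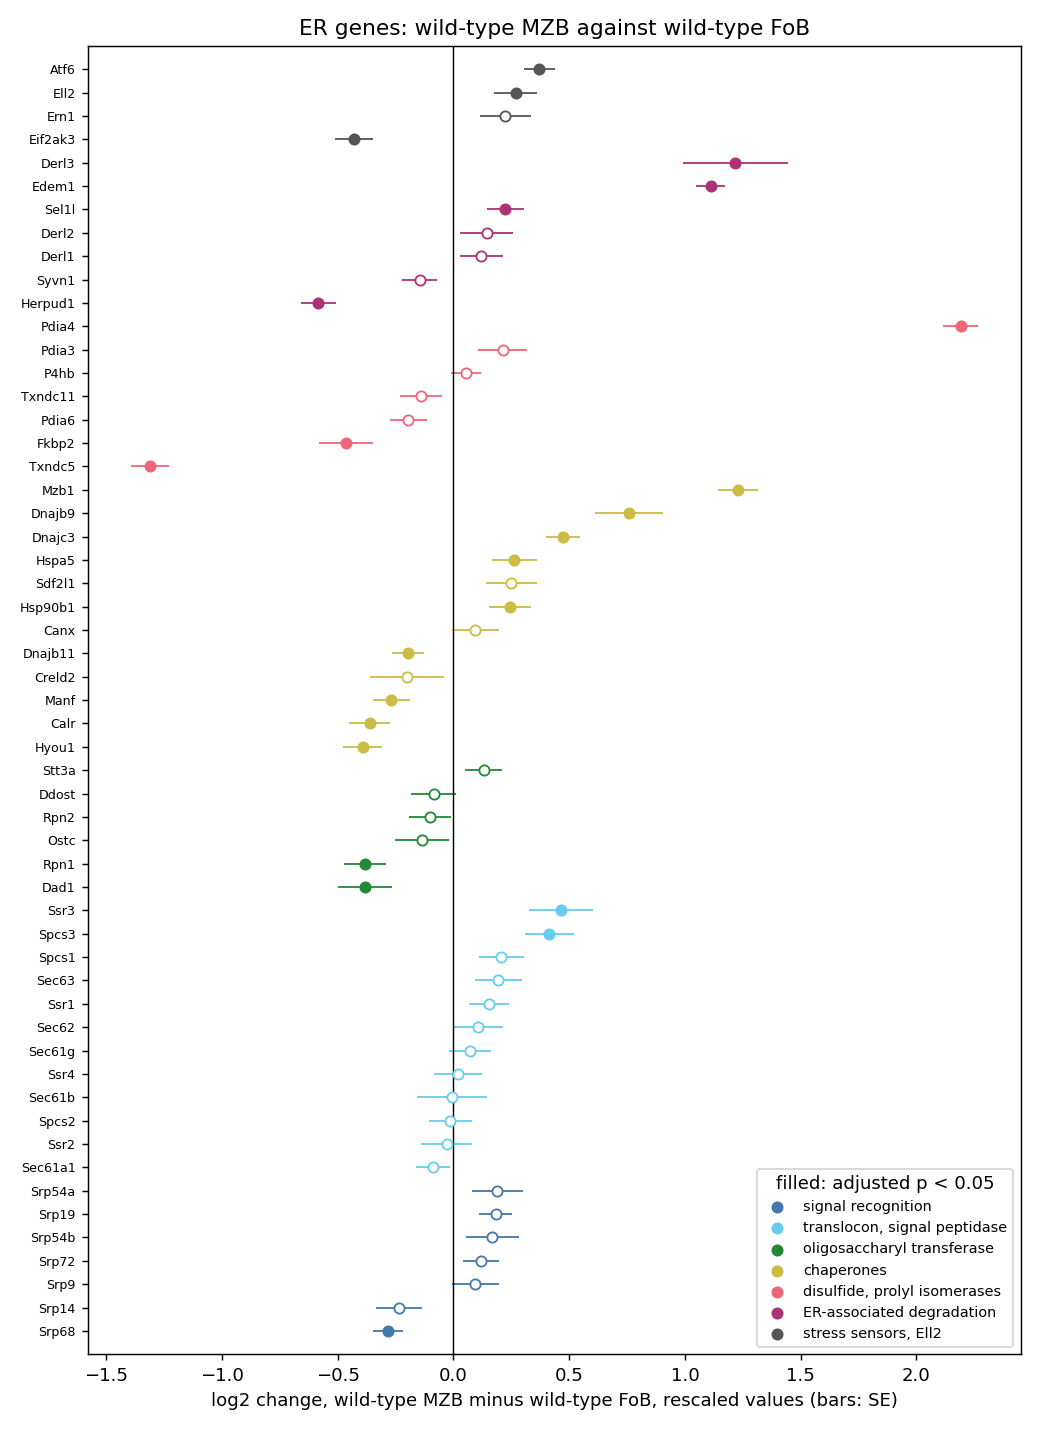
Difference between wild-type MZB (3 libraries) and wild-type FoB (2 libraries) for each of the 55 ER genes, as log2 of rescaled values on the horizontal axis, with bars of 1 standard error and colours for roles. Filled points passed limma with Benjamini-Hochberg adjustment over 9690 genes: 13 higher in MZB, led by Pdia4, and 11 lower, led by Txndc5, of which 8 were higher in MZB per cell.

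Between the wild-type cell types, 52 of 55 genes were higher in MZB per cell and 1, Txndc5, was lower, in a comparison in which 85.9% of all 9690 genes were called, 84.2% higher and 1.67% lower (limma, adjusted p under the 0.05 threshold). Herpud1 and Fkbp2 did not pass. The median log2 difference of the 55 was 0.93, beside 0.78 for all genes. On rescaled values 13 were higher and 11 lower, where 49.9% of all genes were called (25% higher, 24.9% lower), and the medians were 0.10 and 0.00. The count of 24 became 25 with limma voom on the recovered reads (52% of all genes) and 15 without FoB wild-type library 1. Rescaled differences ran from -1.31 for Txndc5 to 2.19 for Pdia4. In 13 genes the call was higher on both scales, in 1 lower on both, and in 8 higher per cell but lower after rescaling. Each of those 8 (Calr, Hyou1, Manf, Dnajb11, Srp68, Rpn1, Dad1 and Eif2ak3) lost its per-cell call without FoB wild-type library 2, and Eif2ak3 lost it in 6 of 10 fits that left out a library (limma, adjusted p up to 0.382).

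The disulfide and prolyl isomerases held the extremes in both directions. Pdia4 (ERp72), a disulfide isomerase of the ER lumen, was at 141, 171 and 177 molecules per cell in wild-type MZB and at 22.8 and 16.0 in wild-type FoB. Every MZB library was thus several times above every FoB library. The ratio of means was 8.40 per cell and 4.60 after rescaling, and the rescaled log2 difference was 2.19 ± 0.07 (SE; limma, adjusted p = 5.27e-09). Txndc5 (ERp46), which also oxidises and isomerises disulfides, ran the other way, at 7.82, 10.1 and 10.6 molecules per cell in wild-type MZB and at 14.2 and 11.9 in wild-type FoB. It was the only member whose wild-type MZB libraries all lay below FoB per cell, at a log2 difference of -0.45 ± 0.20 (limma, adjusted p = 0.0299), which failed without MZB wild-type library 1 (-0.32, adjusted p = 0.12) or FoB wild-type library 1 (-0.33, adjusted p = 0.197). After rescaling Txndc5 was at 6.93, 6.90 and 7.83 against 17.9 and 18.8, a ratio of 0.394 (log2 -1.31 ± 0.08, limma, adjusted p = 3.64e-07), and that call was kept in 10 of 10 fits that left out a library. Fkbp2, a prolyl isomerase, was lower after rescaling only (log2 -0.46, limma, adjusted p = 0.00702). The major isomerases P4hb, Pdia3 and Pdia6, and Txndc11, did not pass after rescaling, with log2 differences of 0.05, 0.21, -0.20 and -0.14.

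Among the chaperones, 12 of 12 were higher in MZB per cell, beside 84.2% of all genes. After rescaling 5 were higher and 4 lower, beside 25% and 24.9% of all genes. Mzb1 (pERp1), a B cell chaperone of immunoglobulin M assembly, was at 63.8, 90.8 and 90.8 molecules per cell in wild-type MZB and at 20.2 and 17.0 in wild-type FoB. The groups were well apart, at a ratio of 4.39 per cell and 2.36 after rescaling (log2 1.23 ± 0.09, limma, adjusted p = 8.06e-07). In the gene annotation 57.2% of the exon bases of Mzb1 lie in a transcript of SPATA24 on the same strand, so reads there cannot be assigned to Mzb1 alone. Dnajb9 (ERdj4), a co-chaperone of BiP and a known Xbp1 target, was at 3.86, 4.89 and 4.59 against 1.62 and 1.09 molecules per cell. That is a ratio of 3.28 per cell and 1.80 after rescaling (log2 0.76 ± 0.15, limma, adjusted p = 0.00157). Dnajc3 (p58IPK), another BiP co-chaperone, was at 6.43, 8.89 and 8.24 against 3.30 and 2.70, and its rescaled log2 difference was 0.47 ± 0.07 (limma, adjusted p = 0.00037). These 3 kept their rescaled calls in 10 of 10 fits that left out a library.

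The general chaperones Hspa5 and Hsp90b1 had rescaled differences close to the threshold. Hspa5 (BiP), the ER Hsp70, was at 55.2, 82.5 and 73.6 molecules per cell in wild-type MZB and at 36.8 and 26.7 in wild-type FoB. After rescaling it was at 48.9, 56.1 and 54.3 against 46.2 and 42.1, which is close together though without overlap. Its rescaled log2 difference of 0.26 and that of Hsp90b1 (Grp94), 0.24, passed narrowly (limma, adjusted p = 0.0431 and 0.0431) and were each kept in 4 of 10 fits that left out a library, with adjusted p up to 0.258 and 0.171. Calr (calreticulin), a lectin chaperone of glycoproteins, was at 58.6, 92.8 and 80.4 against 61.8 and 45.5 molecules per cell, groups that overlap. It was higher per cell (log2 0.52) and lower after rescaling (-0.36 ± 0.09, limma, adjusted p = 0.00608), a call lost without FoB wild-type library 1 (adjusted p = 0.068). Its per-cell call was lost without MZB wild-type library 2 or 3 too (limma, adjusted p up to 0.342). Hyou1, a nucleotide exchange factor of BiP, Manf and Dnajb11 had the same 2 directions, with rescaled log2 differences of -0.39, -0.27 and -0.20. The rescaled call of Dnajb11 was kept in 5 of 10 fits that left out a library, and that of Manf was lost without FoB wild-type library 1 (limma, adjusted p up to 0.195 and 0.179). Canx, the membrane-bound partner of Calr, and Creld2 and Sdf2l1 did not pass after rescaling.

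**Figure D2:**
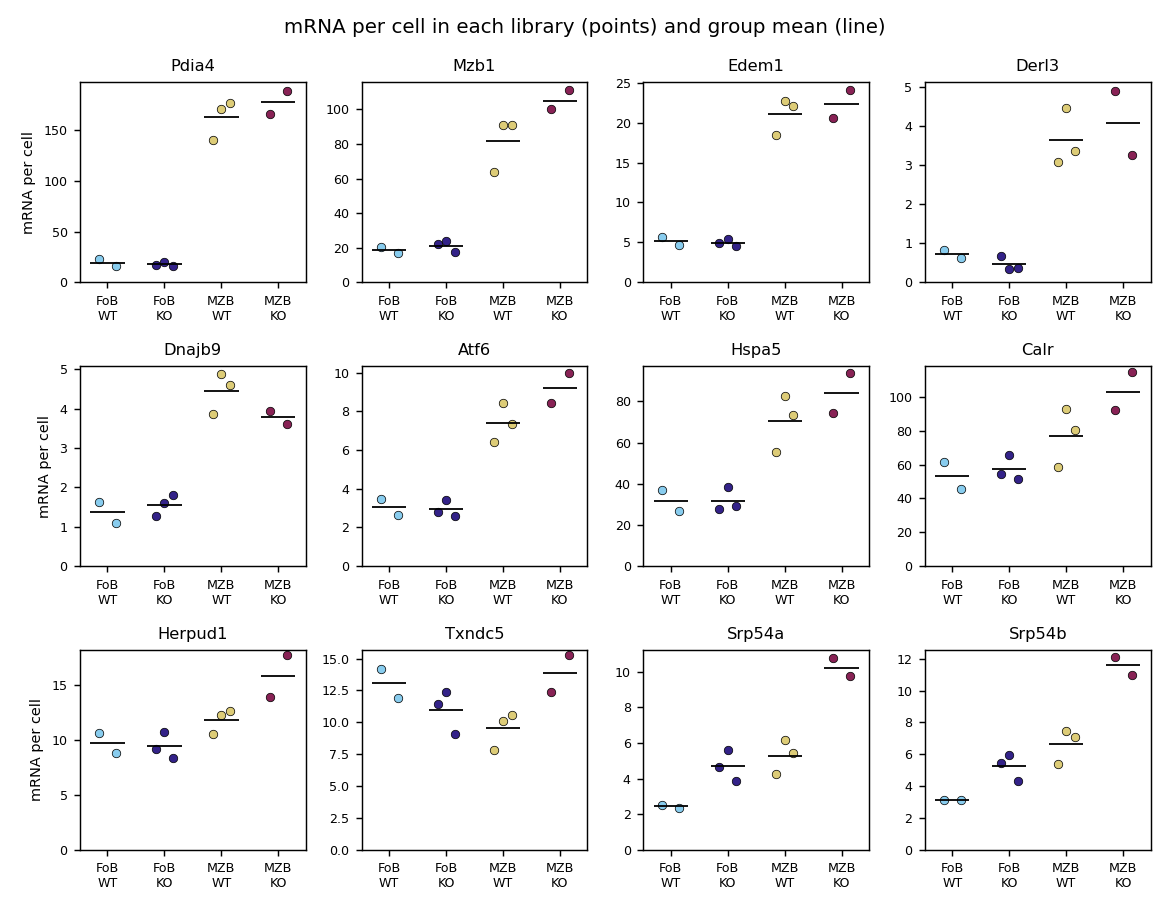
mRNA molecules per cell (vertical axes, each starting at 0) of 12 ER genes in every library (points) with the group mean (line), for FoB and MZB, wild type (WT, 2 and 3 libraries) and knockout (KO, 3 and 2 libraries). Like most ER genes per cell, Pdia4, Mzb1, Edem1, Derl3, Dnajb9 and Atf6 do not overlap between MZB and FoB with and without LSD1. On this scale 84.2% of all genes were called higher in MZB between the wild types and 97.3% between the knockouts. In wild type, Herpud1 overlaps and Txndc5 runs the other way. Between the knockouts, Txndc5 lies close together and Herpud1 is higher in MZB (means 15.8 and 9.43). Srp54a and Srp54b are higher in knockout libraries of both cell types.

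Genes of ER-associated degradation were split in the same way. Edem1, a lectin that delivers misfolded glycoproteins for removal, was at 18.5, 22.7 and 22.1 molecules per cell in wild-type MZB and at 5.68 and 4.70 in wild-type FoB. The ratio was 4.07 per cell and 2.21 after rescaling (log2 1.11 ± 0.06, limma, adjusted p = 1.3e-07). Derl3, a derlin of the retrotranslocation machinery, was low, at 3.09, 4.48 and 3.37 against 0.819 and 0.630, at a ratio of 5.03 per cell and a rescaled log2 difference of 1.22 ± 0.23 (limma, adjusted p = 0.00115). No library of either gene overlapped, and both calls were kept in 10 of 10 fits that left out a library. Herpud1, a scaffold of the same machinery, was at 10.5, 12.3 and 12.6 against 10.6 and 8.83 molecules per cell. Its groups overlap per cell and parted after rescaling, at 9.30, 8.33 and 9.32 against 13.3 and 13.9 (log2 -0.58 ± 0.07, limma, adjusted p = 8.66e-05). Sel1l, which anchors the ubiquitin ligase, was higher by 0.22 on the log2 scale (limma, adjusted p = 0.0342; up to 0.272 in fits that left out a library). The ligase itself, Syvn1 (Hrd1), the most abundant gene of this role, was at 18.8, 18.1 and 20.8 rescaled molecules against 20.6 and 22.1 and did not pass, nor did Derl1 and Derl2.

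Of the entry machinery, 25 genes in all, 25 were higher in MZB per cell and 5 were called after rescaling, where 84.2% of all genes were higher per cell and 49.9% were called after rescaling. Of 12 translocon and signal peptidase genes, 12 were higher in MZB per cell and 2 after rescaling. Those were Ssr3, a subunit of the translocon-associated complex, and Spcs3, a signal peptidase subunit, with rescaled log2 differences of 0.46 ± 0.14 and 0.41 ± 0.10 (limma, adjusted p = 0.0167 and 0.00734). Spcs3 lost its call without FoB wild-type library 1 (adjusted p = 0.0713), and Ssr3 without either FoB wild-type library or MZB wild-type library 2 (up to 0.0833). Ssr4, the most abundant of them, and the channel subunits Sec61a1, Sec61b and Sec61g lay between -0.09 and 0.07 after rescaling. Of 7 signal recognition particle genes, 7 were higher per cell and 1, Srp68, was lower after rescaling (log2 -0.28, limma, adjusted p = 0.00422). Of 6 oligosaccharyl transferase genes, 6 were higher per cell and 2, Rpn1 and Dad1, were lower after rescaling (log2 -0.38 and -0.38, limma, adjusted p = 0.00501 and 0.0179), that of Dad1 being lost without either FoB wild-type library (up to 0.0823). The catalytic subunit Stt3a did not pass after rescaling (log2 0.13).

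The 3 sensors were all higher in MZB per cell, as were 84.2% of all genes. After rescaling, where 49.9% of all genes were called, Atf6 was higher, Eif2ak3 was lower and Ern1 did not pass. Atf6, which is cleaved to a transcription factor, was at 6.41, 8.41 and 7.37 molecules per cell in wild-type MZB and at 3.46 and 2.66 in wild-type FoB. The rescaled libraries stood at 5.67, 5.72 and 5.43 against 4.34 and 4.2, with little spread (log2 0.37 ± 0.07, limma, adjusted p = 0.000996). Eif2ak3, which phosphorylates eIF2 alpha, was at 5.75, 5.63 and 5.31 rescaled molecules in MZB and at 7.77 and 7.41 in FoB. It was lower by 0.43 on the log2 scale (-0.43 ± 0.08, limma, adjusted p = 0.0015), though higher per cell. Ern1, which splices Xbp1 mRNA, was at 1.09, 1.42 and 1.28 against 0.581 and 0.524 molecules per cell and did not pass after rescaling (log2 0.22, limma, adjusted p = 0.111). Ell2, an elongation factor of immunoglobulin secretion, was higher by 0.27 on the log2 scale (limma, adjusted p = 0.0344; up to 0.127 in fits that left out a library). The transcription factors downstream are no members. Xbp1 was at 8.49, 9.05 and 9.89 rescaled molecules against 9.53 and 9.51, groups that overlap (log2 -0.06, limma, adjusted p = 0.588). Atf4 was lower after rescaling (log2 -0.43, limma, adjusted p = 0.00204) and Ddit3 (Chop) did not pass (log2 -0.11, adjusted p = 0.426). The table holds gene totals, so spliced Xbp1 was not measured.

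The calls of the genes with a match in the promoters above were counted, beside 25% higher and 24.9% lower over all genes. Of the 9 genes with an ERSE, 4 were higher in wild-type MZB after rescaling (Dnajc3, Derl3, Hspa5 and Hsp90b1), 1 was lower (Calr) and 4 did not pass. Both genes with an ERSE-II, Herpud1 and Dnajb11, were lower, and so was Txndc5 of the 2 with a UPRE core. Together, 13 genes with any match gave 4 higher and 4 lower.

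Few of these genes were called between knockout and wild type. In MZB, 3 of 55 were higher in the knockout per cell and 0 lower, where 14% of all genes were called (13.3% higher, 0.702% lower), and the median log2 change was 0.34 beside 0.32 for all genes. On rescaled values 2 were higher and 2 lower, where 5.26% of all genes were called (3.36% higher, 1.9% lower), with medians of 0.02 and 0.02. In FoB, 1 was higher per cell and 0 lower (0.712% of all genes called, 0.413% higher and 0.299% lower), and 2 were higher and 0 lower after rescaling (0.588%, with 0.454% higher and 0.134% lower). The medians were 0.00 beside -0.05 per cell, and 0.05 beside -0.01 after rescaling. The MZB counts moved with single libraries: per cell from 1 without MZB knockout library 1 to 13 without MZB wild-type library 2, and after rescaling from 0 without MZB knockout library 1 to 7 without FoB knockout library 3. In FoB they ran from 0 to 2. limma voom called 5 in MZB (11.2% of all genes) and 2 in FoB (1.08%). As a share of all mRNA the 55 genes made 1.024 to 1.054% in knockout MZB, below all wild-type MZB libraries, and 0.850 to 0.910% in knockout FoB, which overlaps wild type. Without Pdia4 and Mzb1 the other 53 made 0.772 to 0.807% in knockout MZB, which overlaps the 0.789 to 0.848% of wild-type MZB.

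**Figure D3:**
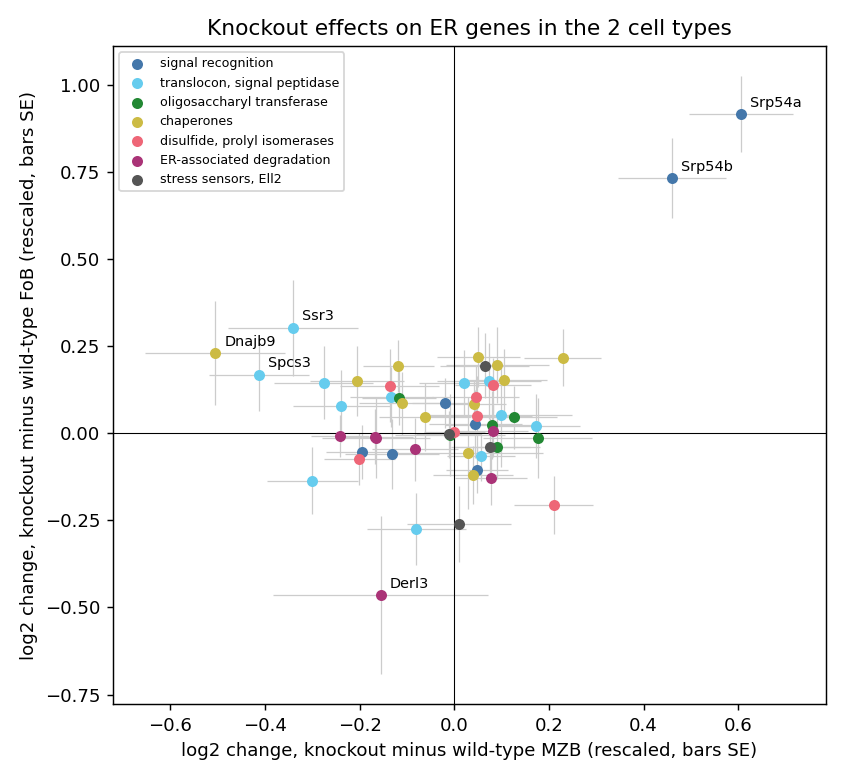
Knockout effect on the 55 ER genes in MZB (horizontal axis, 2 knockout and 3 wild-type libraries) and FoB (vertical axis, 3 and 2 libraries), as log2 change of rescaled values with bars of 1 standard error and colours for roles. Srp54a (0.61 in MZB, 0.92 in FoB) and Srp54b (0.46, 0.73) stand apart at the upper right, and Dnajb9, Ssr3, Spcs3 and Derl3, named for their position, did not pass in FoB.

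The genes that rose in both cell types were Srp54a and Srp54b, which encode the subunit of the signal recognition particle that binds the signal peptide. Srp54a was at 10.8 and 9.74 molecules per cell in knockout MZB and at 4.23, 6.17 and 5.44 in wild-type MZB. In FoB it was at 4.65, 5.58 and 3.89 in the knockout and at 2.54 and 2.37 in the wild type. Every knockout library lay above every wild-type library of its cell type. Per cell the means were 1.94 times the wild type in MZB and 1.92 times in FoB (log2 0.93 ± 0.19 and 0.85 ± 0.19, limma, adjusted p = 0.00024 and 0.00523). After rescaling the log2 changes were 0.61 ± 0.11 and 0.92 ± 0.11 (limma, adjusted p = 0.0118 and 0.00314). The rescaled MZB call was lost without MZB knockout library 1 (0.45, adjusted p = 0.108), and the rescaled FoB call without FoB wild-type library 1 (0.81, adjusted p = 0.0511). The per-cell FoB call was lost without that library (adjusted p = 0.0823), without FoB wild-type library 2 (adjusted p = 0.167) or without FoB knockout library 2 (adjusted p = 0.0616).

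Srp54b was at 12.1 and 11 molecules per cell in knockout MZB against 5.37, 7.44 and 7.10, and at 5.43, 5.96 and 4.32 in knockout FoB against 3.15 and 3.15. The groups did not overlap in either cell type. It passed per cell in MZB (log2 0.79 ± 0.19, limma, adjusted p = 0.00276) and after rescaling in MZB (0.46, adjusted p = 0.0444) and FoB (0.73, adjusted p = 0.0144), but not per cell in FoB (0.67, adjusted p = 0.0819). The rescaled MZB call was lost in 6 of 10 fits that left out a library (adjusted p up to 0.255), and the FoB call without FoB knockout library 1 or FoB wild-type library 1 (up to 0.191). The per-cell MZB call was lost without MZB knockout library 1 (0.72, adjusted p = 0.0502). The other 5 subunits, Srp9, Srp14, Srp19, Srp68 and Srp72, were not called in either knockout comparison on either scale, with rescaled log2 changes from -0.20 to 0.09.

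Srp54a and Srp54b are near-identical copies, so their values are not independent. Of the stretches of 50 bases in Srp54a exons, 70.4% also occur in Srp54b, and 83.9% of those of Srp54b occur in Srp54a. How the deposited counting split such reads was not stated, and the third copy, Srp54c, which shares 74.8% of the stretches of Srp54b, was not analysed here. The rise of either copy alone is therefore uncertain. The copies lie close to each other on chromosome 12, Srp54a at chr12:55080476-55115367 and Srp54b at chr12:55155104-55189213 (GRCm38.p6), with Fam177a at chr12:55124435-55142104 between them. Fam177a rose with them in MZB (rescaled log2 0.88 ± 0.17, limma, adjusted p = 0.016), and stood at 0.77 ± 0.17 in FoB (adjusted p = 0.0807). Of the other measured genes within 1 Mb, Nfkbia alone passed after rescaling, in MZB (0.31, limma, adjusted p = 0.032) and not in FoB (0.10, adjusted p = 0.526).

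**Figure D4:**
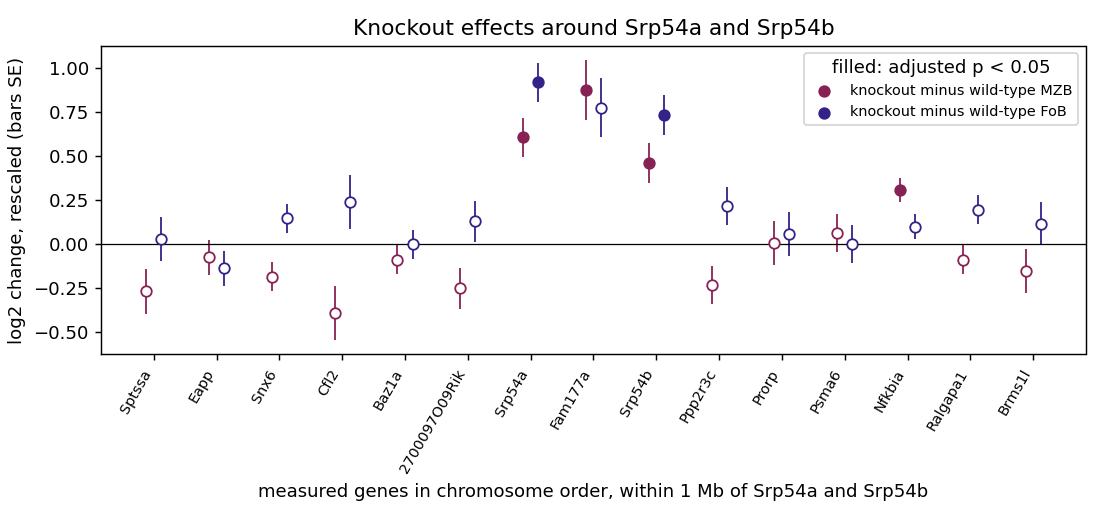
Knockout effect in MZB and FoB (log2 change of rescaled values, bars of 1 standard error, filled where the limma adjusted p passed) for the measured genes within 1 Mb of Srp54a and Srp54b, evenly spaced in their order along chromosome 12. Srp54a, Fam177a and Srp54b stand between 0.46 and 0.92 in both cell types, and the remaining genes lie between -0.39 (Cfl2) and 0.31 (Nfkbia) in MZB and between -0.14 (Eapp) and 0.24 (Cfl2) in FoB.

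Each of the other limma knockout calls depended on the scale. Manf, a secreted stress-induced BiP cofactor, was at 6.53 and 7.68 molecules per cell in knockout MZB against 4.12, 5.43 and 4.78. The groups did not overlap, and it passed per cell (log2 0.55 ± 0.19, limma, adjusted p = 0.042) but not after rescaling (0.23, adjusted p = 0.123), nor in 5 of 10 per-cell fits that left out a library (adjusted p up to 0.537). Spcs3 was at 5.94 and 6.30 rescaled molecules in knockout MZB against 8.16, 8.89 and 7.72, and Edem1 at 13.3 and 13.7 against 16.4, 15.5 and 16.3. Both were lower in every knockout library, at -0.41 ± 0.10 and -0.24 ± 0.06 on the log2 scale (limma, adjusted p = 0.0481 and 0.0443), and neither passed per cell. Each of these calls was kept in 3 of 10 fits that left out a library, with adjusted p up to 0.229 and 0.235. On the recovered reads limma voom called both lower, at -0.43 and -0.24 (adjusted p = 0.00977 and 0.0293). It also called Dnajb9 lower in knockout MZB (-0.57, adjusted p = 0.0182), which limma did not call there on either scale. Pdia4 and Mzb1 did not pass in either knockout comparison: Pdia4 was at 166 and 189 molecules per cell in knockout MZB and Mzb1 at 100 and 111, with rescaled log2 changes of -0.20 and 0.05. Derl3 in FoB was at 0.668, 0.339 and 0.372 in the knockout against 0.819 and 0.630, which overlap, and did not pass (rescaled log2 -0.47 ± 0.23, limma, adjusted p = 0.366). The sensors, with Ell2, gave 0 calls of 4 in both cell types.

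A difference between the knockout effects of MZB and FoB was called by limma for 0 of 55 genes on both scales (2.34% of all genes per cell, 0.31% after rescaling), with 5 and 8 genes at an unadjusted p under 0.05. The share of all genes at that unadjusted p was not counted, so the 5 and 8 stand without a background. limma voom on the recovered reads called 4 (6.14% of all genes): Txndc5, higher by 0.43 (adjusted p = 0.0414), and Spcs3, Ssr3 and Dnajb9, at -0.61, -0.68 and -0.85 (adjusted p = 0.0216, 0.0308 and 0.0397). Behind these, Dnajb9 was at 2.56 and 2.04 rescaled molecules in knockout MZB against 3.42, 3.32 and 3.38, without overlap. In FoB it was at 1.89, 2.08 and 2.88 against 2.03 and 1.72, with overlap. On rescaled values the difference for Dnajb9 was -0.74 ± 0.21 (limma, adjusted p = 0.1), so this call rests on the choice of model.

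The contrast of cell types was also made between the knockouts, from libraries that the wild-type contrast does not compare. Both contrasts came from the same fit and rescaling over all 10 libraries, so their p-values are not independent. Per cell 54 of 55 genes were higher in knockout MZB (97.7% of all genes called, 97.3% higher and 0.444% lower), and after rescaling 6 were higher and 10 lower (35.2%, with 18.2% higher and 17.1% lower), with medians of -0.06 beside 0.00. The 16 rescaled calls became 8 without MZB knockout library 1 and 18 with limma voom (37.9% of all genes). Pdia4 had a ratio of 10.1 per cell and 4.22 after rescaling (log2 2.06 ± 0.07, limma, adjusted p = 1.08e-08), Mzb1 of 5 and 2.09, Edem1 of 4.49 and 1.87, and Derl3 of 8.88 and 3.72. Of the 13 genes higher in wild-type MZB after rescaling, these 4 and Atf6 were called higher between the knockouts too, and the other 8 were not. Dnajb9 went from a rescaled ratio of 1.80 to 1.01, Dnajc3 from 1.41 to 1.12, Ssr3 from 1.40 to 0.864 and Spcs3 from 1.35 to 0.881, and Hspa5, Hsp90b1, Sel1l and Ell2 had log2 differences from 0.05 to 0.15. Of the 11 lower in wild-type MZB, 8 were lower between the knockouts too, and Hyou1, Srp68 and Dad1 did not pass. The share of all genes called again was not counted. Fewer of all genes were called between the knockouts (35.2%) than between the wild types (49.9%), so a lost call alone does not show a change. The difference between the contrasts is that tested above, called for 0 of 55 genes by limma and 4 by limma voom. Txndc5 was at 12.4 and 15.3 molecules per cell in knockout MZB and at 11.4, 12.4 and 9.11 in knockout FoB, groups next to each other. It was the member not called per cell (log2 0.34, limma, adjusted p = 0.0946) and was again the lowest after rescaling (-0.90 ± 0.08, adjusted p = 1.05e-05). Ern1 was at 1.03 and 0.903 rescaled molecules against 0.531, 0.598 and 0.673, groups that lie apart, and passed here (log2 0.49 ± 0.11, limma, adjusted p = 0.00485; 0.0634 without MZB knockout library 1).

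Other genes of the same pathways were counted from lists that hold no member. In wild-type MZB against FoB, after rescaling, 11 of 24 other folding and oxidation genes were higher and 1 lower, with a median log2 difference of 0.21 beside 0.00 for all genes. Among them were Nucb2, a calcium-binding protein, at 8.66, 7.93 and 9.31 against 3.03 and 3.12 rescaled molecules (log2 1.40 ± 0.09, limma, adjusted p = 2.99e-07), and Ero1a, the oxidase that recharges disulfide isomerases, at 2.85, 2.72 and 2.29 against 1.55 and 1.35 (log2 0.74, adjusted p = 0.000406). Neither gene had overlapping groups. Other translocation genes gave 6 higher and 6 lower of 23, other glycosylation genes 8 and 8 of 30, and stress response factors and targets 8 and 8 of 29. Other degradation genes gave 3 higher and 7 lower of 33, and ER to Golgi transport genes 5 higher and 14 lower of 40, with a median of -0.15. Over all genes 25% were higher and 24.9% lower on that scale, and the translocation, glycosylation and stress response lists lie near those shares. Per cell 163 of the 179 genes of the 6 lists were higher and 1 lower, beside 84.2% and 1.67% of all genes. In the knockout comparisons after rescaling these 6 lists gave 1 call in MZB, Bet1, a Golgi SNARE (log2 -0.49, limma, adjusted p = 0.0497), and 0 in FoB, beside 5.26% and 0.588% of all genes called. Per cell they gave 11 calls in MZB, all higher, and 0 in FoB, beside 14% and 0.712% of all genes. In FoB 4 of the 179 had an unadjusted limma p under 0.05 per cell and 20 after rescaling. That share was not counted over all genes, so the 4 and 20 stand without a background.

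Markers that could bear on these values were read from the same libraries. Of 20 plasma cell genes, 12 were in the table, and Prdm1, Jchain, Sdc1 and Tnfrsf17 were not analysed here. They summed to 161 to 173 rescaled molecules in wild-type MZB, 159 to 164 in knockout MZB, 132 to 140 in wild-type FoB and 139 to 156 in knockout FoB. Of those 12, 6 were higher and 1 lower in wild-type MZB than in FoB, beside 25% and 24.9% of all genes. Among the former were Cd38 (log2 0.96) and Eaf2 (log2 1.11). Few markers of cells outside the sort were in the table. They were 1 of 10 T cell markers (Lck), 2 of 10 macrophage markers (Itgam and Ly6c2) and 2 of 8 dendritic cell markers (Flt3 and Cst3). The rest were 2 of 6 natural killer markers, 1 of 8 erythroid and platelet markers and 0 of 6 neutrophil markers. Not all were low: Lck was at 2.71 to 5.41 rescaled molecules over all libraries, and the dendritic pair summed to 9.11 to 20.3. In knockout MZB, Lck (4.60 to 4.79 against 2.71 to 3.37) and the 1 erythroid and platelet marker (1.36 in both against 0.673 to 0.779) were higher than in wild-type MZB. So were the sums of the macrophage pair (2.82 to 3.91 against 0.313 to 0.542), the dendritic pair (12.7 to 15 against 9.11 to 9.48) and the follicular markers above. Of the 9 follicular markers, 3 were called higher and 1 lower there after rescaling, beside 3.36% and 1.9% of all genes. In knockout FoB the macrophage pair summed to 3.21 to 5.18 against 0.532 to 1.1 in wild-type FoB, and the dendritic pair to 16.5 to 20.3 against 15.8 in both. Ly6c2 of the macrophage pair is also among the 12 plasma cell genes, and it was called higher in the knockout of both cell types on both scales. The part of these markers in the knockout values of the ER genes was not tested.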

How the data were processed

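Poly(A) RNA of 10 libraries of sorted splenic B cells was sequenced, and samples were grouped by labelled cell type and LSD1 status. The authors deposited a signal table of mRNA per cell, with 1 value for each gene in each library. STAR and mm10 are named per the submitters' processing notes. The counter, its use of strand, the gene filter and the conversion from reads to molecules were not stated. Dividing by the value of 1 read gave whole reads for 100% of 9690 genes (largest deviation 8.55e-06 reads), and so the depth. Of these genes 9681 matched a symbol and 9 did not.

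Differences were tested two-sided with limma 3.58.1 (R 4.3.3; lmFit, contrasts, eBayes with trend) on log2(value + 0.3), with 1 coefficient per group over all 10 libraries and no covariate. A fold change on that scale understates the change of low genes. Benjamini-Hochberg adjustment ran over 9690 genes, threshold 0.05. A floor of 0.3 in at least 2 libraries removed 0 genes. For rescaled values each library was divided by its trimmed mean log-ratio to the average library (trims 0.3 and 0.05), with factors from 0.625 to 1.761. An error common to all genes of a library is treated as independent for each gene, which can make p-values per cell too small. Count models were planned for whole-number tables and were not run, because the table holds no counts, and limma voom on recovered reads took their place.

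Libraries of a group differed by more than counting noise, with Pearson correlations of log values of 0.984 to 0.990. Deviations from group means were weakly correlated between same-numbered libraries of different groups (r from -0.19 to 0.187, median 0.034, over 13 pairs). The median over 24 differently numbered pairs was -0.008. With 2 or 3 libraries a group this cannot decide whether the numbers pair samples. No pairing was used in the main fits. Named genes are Kdm1a, members that passed on both scales (up to 8 per direction), the member of each role with the highest level or the smallest per-cell p, Xbp1, Atf4, Ddit3 and up to 2 genes of each other list. Further members were named after their values were seen. The members and lists were chosen with earlier results of these data known. Promoter windows are from RefSeq (GRCm38.p6), searched with Python 3.11.15. The fits were tested on simulated data. Alternatives were other pseudocounts, floors, scales, trends, weights, blocks and libraries left out.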

Additional observations from a re-analysis of the deposited data

How the results depend on the processing

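Of 33 named gene and comparison pairs under their alternatives, 1023 values in all, 972 stayed on their side of the threshold. Another 38 fell out of significance and 13 came into it. Where either fit passed, 0 reversed direction. Direction was not compared where neither passed, and some signs changed there. Dnajb9 in knockout against wild-type FoB, for example, ran from -0.059 to 0.405 per cell (log2) with libraries left out. Counts of ER genes called moved as follows. With pseudocount 1, knockout against wild-type MZB gave 6 in place of 3, and limma voom gave 5. Knockout against wild-type FoB gave 2 in place of 1 on rescaled values, with library weights and with limma voom. Wild-type MZB against FoB gave 24 on rescaled values and 25 with limma voom in place of 53, knockout MZB against knockout FoB 16 and 18 in place of 54, and the difference between knockout effects 4 with limma voom in place of 0. The replicate number was also used as a block, although whether it pairs samples could not be decided. The per-cell counts were then 2, 1, 49, 54 and 0. Their order is knockout MZB, knockout FoB, wild-type cell types, knockout cell types and difference. The replicate block on rescaled values gave 1 in place of 4 in knockout MZB and 1 in place of 2 in knockout FoB. Leaving out each library in turn, the counts ran per cell from 1 to 13 in knockout MZB, 0 to 2 in knockout FoB, 42 to 53 and 53 to 54 for the wild-type and knockout cell types and 0 to 1 for the difference. After rescaling they ran from 0 to 7, 0 to 2, 15 to 27, 8 to 20 and 0 to 0. Fits on the compared groups alone were not run for the difference, which uses all groups. The causes were not tested. The precision rests on 2 or 3 libraries a group and on 65.2 mean reads for the lowest member, 661.3 for the median one.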
